A study of Xenopus laevis with 6 samples.

Results

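Molecular chaperones and stress response genes were examined in pronephric explants of the frog Xenopus laevis with and without bhh. Members were taken by gene name from the array: heat shock protein genes, J-domain protein genes (dnaj), subunits of the cytosolic chaperonin (tcp1 and cct), protein disulfide isomerases (pdia), calreticulin (calr), and the stress response genes hmox, ddit, gadd45, atf3 to atf6 and xbp1. This gave 92 probe sets for 76 gene symbols, out of 15491 probe sets other than controls, of which 9304 carry 1 of 7531 symbols, and 85 of the 92 were bright enough to be tested. The groups were bhh-treated explants (3 pools) and untreated explants (3 pools). All explants were cut from the flanks of stage 24 embryos, 300 explants were extracted for each pool, and 1 µg of its total RNA was amplified, biotin-labelled and hybridised to its own Affymetrix array. The name bhh stands for banded hedgehog, a secreted signalling protein whose gene is now called ihh. The sources used here do not say how bhh was supplied or which clutches the embryos came from. With untreated explants as the sole controls, bhh and the procedure that supplied it cannot be told apart. The p-values measure the spread between these pools only.

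Chaperones bind unfolded proteins and help them reach their working shape. Each compartment of the cell has its own set. In the cytosol, HSP70 proteins are driven by J-domain proteins, HSP90 finishes the folding of signalling proteins, small heat shock proteins hold unfolded chains, and the ring-shaped chaperonin TRiC folds actin and tubulin. In the endoplasmic reticulum (ER), BiP, GRP94, calreticulin and the disulfide isomerases fold secreted and membrane proteins, and the unfolded protein response raises them together through ATF6, XBP1 and ATF4. In the mitochondrion, HSP60 and HSP10 form a separate chaperonin, and mitochondrial HSP70 pulls proteins in through the membrane.

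Values are MAS5 signals, brightness values on a linear scale that the authors had scaled to a common level on each array. All 6 arrays had the same trimmed mean of 500.1. Signals of bacterial and tag control probe sets gave a background of 37.6 (their 95th percentile). The ligand gene ihh.S had signals of 3121, 2957 and 2824 in bhh-treated pools, against 36.0, 14.3 and 17.8 in untreated pools. It was thus high in every library labelled as treated (at least 78.9-fold, limma adjusted p = 6.9e-07). In the tissue check, 6 of 18 pronephros marker probe sets were above background on all 6 arrays, and 2 of 18 were below it on all 6. The pronephros markers fxyd2.S (26.5 ± 5.95 in bhh-treated and 627 ± 145 in untreated pools, SD, n = 3) and lhx1.L (35.7 ± 16.3 in bhh-treated and 421 ± 59.4 in untreated pools) were present in untreated pools. Of 12 tested pronephros probe sets, 4 were lower and 1 higher at a limma adjusted p under 0.05. The shares of all tested probe sets were 0.637% and 0.740%. In the limma fit with a replicate block, described below, 5 were lower and 1 higher, against 2.66% and 3.65% of all tested. The higher one was osr1.L, with 282 ± 33.0 in bhh-treated and 142.5 ± 21.0 in untreated pools. Summed signals differed between the groups for some tissue lists and overlapped for others. The summed signal of the 18 pronephros probe sets was 1428 to 1546 in bhh-treated and 2855 to 3092 in untreated pools. For 19 neural probe sets it was 2083 to 2293 in bhh-treated and 2696 to 2924 in untreated pools. A large part of this sum was tubb2b.S, with 1153 ± 110 in bhh-treated and 1544 ± 106 in untreated pools. Of the 7 neural probe sets tested, none was called in the limma fit without a block. With the block 2 were lower, against 2.66% of all tested probe sets. These were sncb.S (limma adjusted p = 0.00267) and tubb2b.S (limma adjusted p = 0.0243). For 13 probe sets listed as endoderm, gata5 and gata6 among them, the summed signal was 5727 to 6318 in bhh-treated and 4568 to 5237 in untreated pools. Of the 7 tested in this list, 1 was higher without the block, gata5.S (limma adjusted p = 0.00379), against 0.740% of all tested probe sets. With the block 4 were higher, all of gata5 or gata6, against 3.65% of all tested. The sum is therefore not read here as a change of endoderm. For 11 epidermis probe sets the sums overlapped, at 84525 to 112665 in bhh-treated and 99172 to 125982 in untreated pools. Those of 6 notochord probe sets overlapped too, at 1405 to 1652 in bhh-treated and 1413 to 1643 in untreated pools. Of 10 tested epidermis probe sets, none was called without the block. With the block 1 was lower, foxi1.L (limma adjusted p = 0.0345), against 2.66% of all tested. For 10 blood probe sets, of which 5 were tested, the sums were 815 to 899 in bhh-treated and 939 to 988 in untreated pools. The tested ones ran both ways, 3 above 0 and 2 below. The lmo2.S signal was 447 ± 31.2 in bhh-treated and 585 ± 12.4 in untreated pools. The globin gene hba3.L had 100 ± 41.3 in bhh-treated and 45.2 ± 11.2 in untreated pools. None was called without the block, and hba3.L alone was higher with it (limma adjusted p = 0.0191), against 3.65% of all tested. This sum is not read here as a change of blood. The part of tissue makeup in the chaperone values was not tested. In bulk RNA, fewer cells of a type and less RNA per cell cannot be told apart.

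Across the members the changes were small, and most leaned downward. Of 85 tested probe sets, 61 had a log2 fold change (bhh-treated over untreated) below 0, or 71.8%, against 49.5% of all 11618 tested probe sets. The median was -0.13 for the members and 0.00 for all tested. In the limma fit without a block, 1 member was lower at an adjusted p under 0.05, a probe set of cct2.S, where the share of all tested probe sets called lower was 0.637%. No member was higher, where the share of all was 0.740%. At an unadjusted p under 0.05, 9 members were lower and 3 higher (10.6% and 3.53% of the members, against 5.81% and 6.40% of all tested). The arrays of the groups did not overlap for 15 members that were lower and 5 that were higher, or 17.6% and 5.88%, against 9.01% and 9.30% of all tested.

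Arrays with the same replicate number deviated together, most clearly those numbered 1, while the numbers 2 and 3 were hardly told apart. A second limma fit took the number as a block. With it, 6 members were lower and 2 higher (7.06% and 2.35% of the members), against 2.66% and 3.65% of all tested probe sets. The 6 lower ones were cct2.S (2 probe sets), cct8.S, hspd1.S, hspe1.L and hmox1.S, and the 2 higher ones dnajc19.L and ddit4.S. All 85 estimates lay within 1 of 0 on the log2 scale, and the 95% interval of 79 did too. With all tested probe sets split by brightness into 4 bins of nearly equal size, 6 of 7, 8 of 16, 14 of 19 and 33 of 43 members were below 0 from the dimmest bin to the brightest. The share of all probe sets below 0 in these bins was 50.1%, 47.5%, 47.25% and 53.15%.

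**Figure D1:**
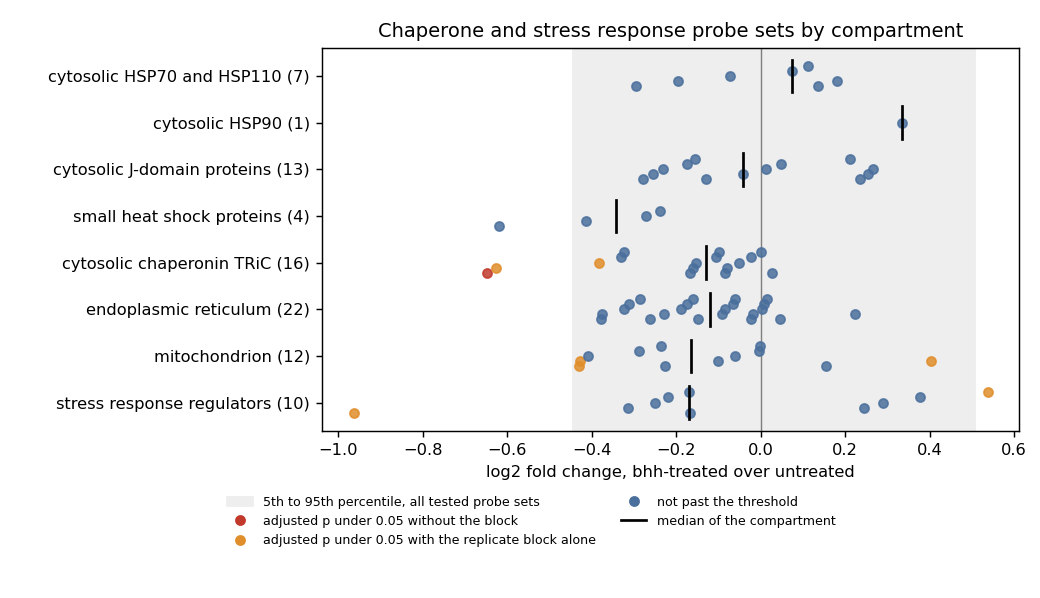
Each point is a tested probe set, placed by its log2 fold change (bhh-treated over untreated, horizontal axis) in its compartment, with the number of probe sets in brackets, a black line at the compartment's median and a grey band from the 5th to the 95th percentile of all tested probe sets. Red marks the call without the block, orange calls with the block alone and blue no call. The small heat shock proteins have the lowest median (-0.34), and hmox1.S (-0.96) and ddit4.S (0.54) lie at the ends.

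The cytosolic HSP70 machine showed no call in either fit. This compartment had 7 tested probe sets, those of HSP70 and HSP110 genes and that of hspbp1.L, a gene for an HSP70-binding protein. Of the 7, 3 were below 0 and the median was 0.07, which is the value of hspbp1.L (0.07 ± 0.14). The constitutive HSP70 gene hspa8.L, whose product works in everyday folding and in taking clathrin coats off vesicles, had signals of 16410, 14653 and 11951 in bhh-treated pools, against 20595, 17235 and 14968 in untreated pools. Each treated array was below the untreated array of the same number, but the groups overlapped, and the log2 fold change was -0.30 ± 0.18 (SE, limma adjusted p = 0.547, or 0.0832 with the block). The related gene hspa1l.S gave 15541, 15432 and 12975 in bhh-treated pools, against 19349, 17082 and 14155 in untreated pools. It had the same order within each number (log2 fold change -0.20 ± 0.16, adjusted p = 0.69). After quantile normalization the value was -0.01 for hspa1l.S and -0.15 for hspa8.L. The exchange factors that reset HSP70, hspa4.S (0.18 ± 0.26) and hsph1.L (-0.07 ± 0.15), had intervals that reached from -0.38 to 0.75 and from -0.41 to 0.26. The value of hspa4.S was -0.0433 without untreated array 1 and 0.44 without untreated array 3.

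The probe set of hsp70.L, a gene of the heat-inducible class, stayed dim. Its signals were 28.6, 32.7 and 18.3 in bhh-treated pools and 29.0, 5.30 and 18.0 in untreated pools. All 6 lie under the background, so no fold is given and the probe set was not tested. Only 1 probe set of cytosolic HSP90 was among the members, hsp90ab1.S, the constitutive form. It had 3558, 3004 and 5900 in bhh-treated pools, against 3611, 2640 and 3293 in untreated pools. Array 3 of the treated group stood above the other 5. The log2 fold change was 0.34 ± 0.23 (SE, limma adjusted p = 0.606), and 0.05 without that array.

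J-domain proteins of the cytosol and nucleus, which deliver clients to HSP70 and switch on its ATPase, were split. Of 13 tested probe sets, 7 were below 0 and 6 above, with a median of -0.04 and no call in either fit. Among the classical partners, dnaja4.1.L had 816, 799 and 784 in bhh-treated pools, against 1030, 961 and 878 in untreated pools. Its groups did not overlap (log2 fold change -0.25 ± 0.12, limma adjusted p = 0.45). The general HSP70 partner dnaja1.L had -0.18 ± 0.14, and the homeologs dnaja2.L and dnaja2.S had -0.04 ± 0.16 and 0.01 ± 0.19. Both probe sets of dnajc7.L, which bridges HSP70 and HSP90, were above 0, at 0.21 ± 0.13 and 0.26 ± 0.18, and above in all 3 same-numbered pairs. The more specialised dnajc8.S (splicing), dnajc9.L (histone handling) and dnajc21.L (ribosome assembly) had 0.05 ± 0.15, -0.13 ± 0.23 and 0.25 ± 0.22. The groups of all 3 overlapped. The probe set of dnajb2.L was below background on all 6 arrays.

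The chaperonin TRiC held the single call of the unblocked fit. TRiC is a double ring of 8 different subunits, and the array's names give 16 probe sets for all 8. That of cct6a.S shares its array cluster name with the gadd45a.S probe set, so which gene it reads is uncertain. Of these, 14 were below 0, with a median of -0.13 and a range from -0.65 to 0.03. In the unblocked fit 1 passed, and with the block 3 did, all lower. The shares of all tested probe sets called lower were 0.637% and 2.66%. The 3 were probe sets of cct2.S and cct8.S. At the cct2.S probe set whose probes are all assigned to this gene (its name ends in a_at), the signals were 2056, 1741 and 1679 in bhh-treated pools, against 2755, 3016 and 2774 in untreated pools. The groups were well apart. The signal fell 1.57-fold, to 1825 ± 202 in bhh-treated pools, against 2849 ± 146 in untreated pools (SD, n = 3; log2 fold change -0.65 ± 0.13, limma adjusted p = 0.0351, or 0.0012 with the block). This call was kept without treated array 1 (adjusted p = 0.0174). It was lost when any other array was dropped (adjusted p between 0.0578 and 0.201), with log2 fold changes from -0.67 to -0.59.

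The other cct2.S probe sets gave smaller values. By the maker's naming, x_at probe sets hold probes that may also match other sequences. The first of these had 3430, 2977 and 3011 in bhh-treated pools, against 4218, 4208 and 3832 in untreated pools. It did not overlap either and passed with the block alone (-0.38 ± 0.12, adjusted p = 0.227, or 0.0282 with the block). The second had 1463, 1326 and 1453 in bhh-treated pools and 1534, 1796 and 1409 in untreated pools, with overlap and a log2 fold change of -0.15 ± 0.13. The size for cct2.S thus differed between probe sets by 0.49 on the log2 scale.

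Among the remaining TRiC subunits, cct8.S was the other with a call. A dim cct8.S probe set had 174, 164 and 123 in bhh-treated pools, against 247, 244 and 215 in untreated pools (log2 fold change -0.63 ± 0.19, limma adjusted p = 0.192, or 0.0315 with the block). A second one had 124, 110 and 84.5 in bhh-treated pools and 124, 104 and 99.2 in untreated pools, with a log2 fold change of -0.05 ± 0.22. The homeolog cct8.L, with 2043, 1741 and 1809 in bhh-treated pools and 2058, 2064 and 1790 in untreated pools, had -0.08 ± 0.13. So neither the second probe set nor the homeolog showed the separation of the first. The subunit cct6a.S had 2558, 2403 and 2239 in bhh-treated pools, against 2954, 3408 and 2714 in untreated pools. Its groups were apart, without a call (-0.33 ± 0.13, adjusted p = 0.351, or 0.0668 with the block). For tcp1.S, every treated array was below its same-numbered partner (-0.32 ± 0.24, adjusted p = 0.642, or 0.0724 with the block). Nearest to 0 were cct4.L (0.00 ± 0.19), cct5b (-0.02 ± 0.15) and cct7.S (0.03 ± 0.12).

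**Figure D2:**
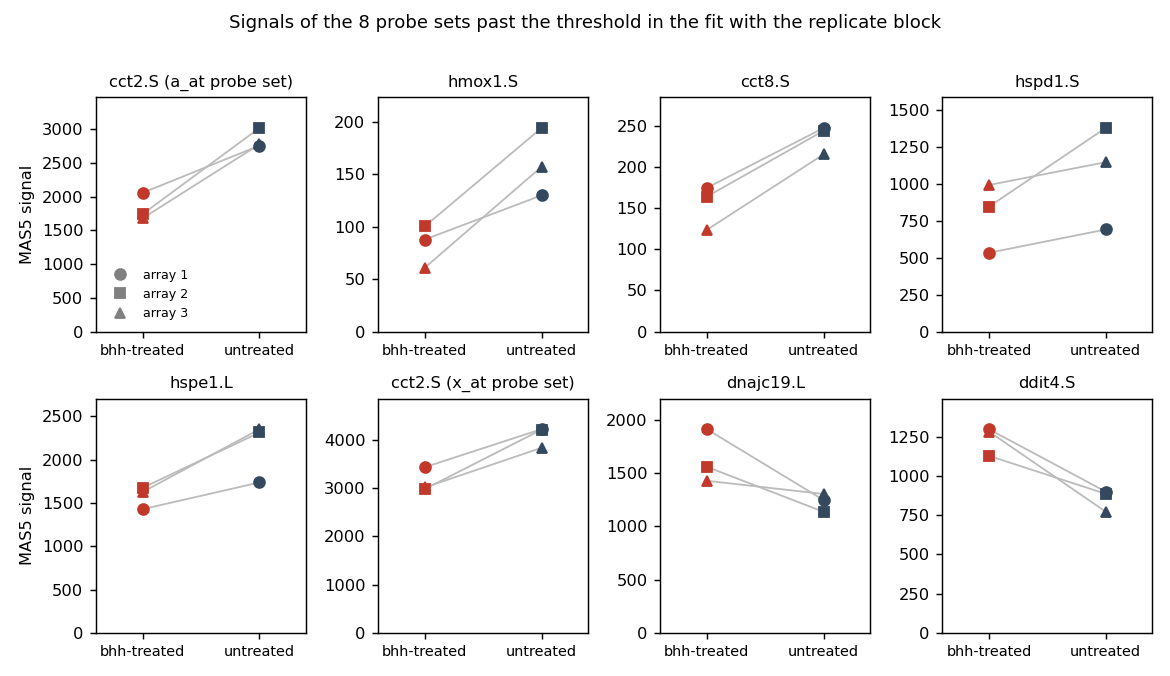
MAS5 signal (vertical axis, linear, from 0) of the 8 probe sets past the threshold in the fit with the replicate block, with bhh-treated arrays in red, untreated arrays in dark blue and grey lines between arrays of the same number. Each of the 3 lines falls toward the untreated side for ddit4.S and dnajc19.L and climbs toward it for the other 6, and the groups overlap for hspd1.S alone.

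Small heat shock proteins were the compartment with the lowest median (-0.34), and all 4 tested probe sets were below 0. None passed either fit, and 3 of 4 were lower at an unadjusted p under 0.05, against 5.81% of all tested probe sets. The gene hspb8.L, whose product works with BAG3 in removing damaged proteins in muscle, had 823, 860 and 862 in bhh-treated pools, against 1034, 1047 and 993 in untreated pools. The groups were apart by more than either group's spread (-0.27 ± 0.12, limma adjusted p = 0.386, or 0.152 with the block). The gene hspb7.L, known from heart and skeletal muscle, had 350, 287 and 288 at its first probe set in bhh-treated pools, against 358, 379 and 504 in untreated pools (-0.41 ± 0.17, adjusted p = 0.375). Its a_at probe set varied more between arrays than between groups, with 216, 627 and 619 in bhh-treated pools and 376, 512 and 715 in untreated pools (-0.24 ± 0.37).

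Both homeologs of hspb1, which encodes HSP27, were dim. The hspb1.S probe set had 50.1, 48.5 and 71.0 in bhh-treated pools, against 82.5, 107 and 70.8 in untreated pools (-0.62 ± 0.26, limma adjusted p = 0.379). Treated array 3 and untreated array 3 were nearly equal. The hspb1.L probe set had 20.3, 31.5 and 25.1 in bhh-treated pools, all under the background, against 66.0, 78.5 and 54.2 in untreated pools, all above it. It was at least 1.74-fold lower in bhh-treated pools. It was left out of the main fit by the filter on dim probe sets. Without the filter, its adjusted p = 0.121 and was 0.0624 with the block. Markers of somite and skeletal muscle moved the same way as the small heat shock proteins. Of 33 tested muscle probe sets, 25 were below 0, with a median of -0.40. In the unblocked limma fit 7 fell and none rose. With the block 18 were lower and 1 higher, against 2.66% and 3.65% of all tested probe sets. The summed signal of all 42 ranged from 140504 to 164874 in bhh-treated pools and from 189110 to 215801 in untreated pools, and 33 of 42 were above background on all arrays and 7 below it on all. The part of muscle in the small heat shock protein values was not tested.

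ER chaperones are the class that the unfolded protein response is known to raise together. None among the members passed in either direction. Of 22 tested probe sets, 17 were below 0, with a median of -0.12, a range from -0.38 to 0.22 and no call in either fit, and the arrays of the groups did not overlap for 2 that were lower and 1 that was higher (9.01% and 9.30% of all tested probe sets). For BiP, the ER form of HSP70 and the usual marker of ER stress, the hspa5.L signals were 2439, 2940 and 2690 in bhh-treated pools and 2046, 3209 and 2853 in untreated pools. The groups overlapped fully. The log2 fold change was 0.01 ± 0.17, with a 95% interval from -0.36 to 0.39. Its homeolog hspa5.S had 870, 1861 and 1758 in bhh-treated pools and 1492, 1777 and 1946 in untreated pools (-0.29 ± 0.25). Treated array 1 was the lowest of the 6, and without it the estimate was 0.0660.

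GRP94, the ER form of HSP90, had the smallest p among the tested ER members in the unblocked fit. The hsp90b1.L signals were 1442, 1288 and 1324 in bhh-treated pools, against 1681, 1505 and 1673 in untreated pools. These groups did not overlap (-0.26 ± 0.12, limma adjusted p = 0.422, or 0.145 with the block). The hsp90b1.S signals were 618, 689 and 784 in bhh-treated pools, against 780, 1014 and 807 in untreated pools, with overlap by a few units (-0.31 ± 0.15, adjusted p = 0.447). The J-domain protein gene dnajb9.L, a target of the XBP1 branch in mammals, had 423, 467 and 384 in bhh-treated pools, against 610, 511 and 477 in untreated pools. It too was separated (-0.32 ± 0.15, adjusted p = 0.427, or 0.153 with the block).

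The lectin chaperone calreticulin, which serves glycoproteins, and the disulfide isomerases lay close to 0. The values were -0.15 ± 0.15 for calr.L, -0.02 ± 0.13 for calr.S, -0.09 ± 0.13 for pdia3.S, 0.00 ± 0.17 for pdia4.L, -0.02 ± 0.13 for pdia6.L and -0.16 ± 0.12 for pdia6.S. The 95% intervals of these 6 together ran from -0.47 to 0.37. The intervals of both tested probe sets of pdia5.L reached lower, from -0.62 to 0.46 (-0.08 ± 0.24) and from -0.55 to 0.17 (-0.19 ± 0.16). Of the ER J-domain proteins, dnajc25.S was above 0 and separated, with 2366, 2418 and 2302 in bhh-treated pools, against 1752, 2127 and 2225 in untreated pools (0.22 ± 0.13, limma adjusted p = 0.543). The PERK inhibitor dnajc3.L (-0.23 ± 0.17), the membrane-bound dnajc1.S (-0.38 ± 0.19) and dnajb14.S (-0.38 ± 0.23) were below in all 3 same-numbered pairs. For dnajc1.S the limma adjusted p = 0.471, or 0.112 with the block, the smallest of the ER members there. The 4 probe sets of dnajb11, a BiP partner, lay between -0.17 and 0.05. The probe set of pdia2.L was below background on all 6 arrays.

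**Figure D3:**
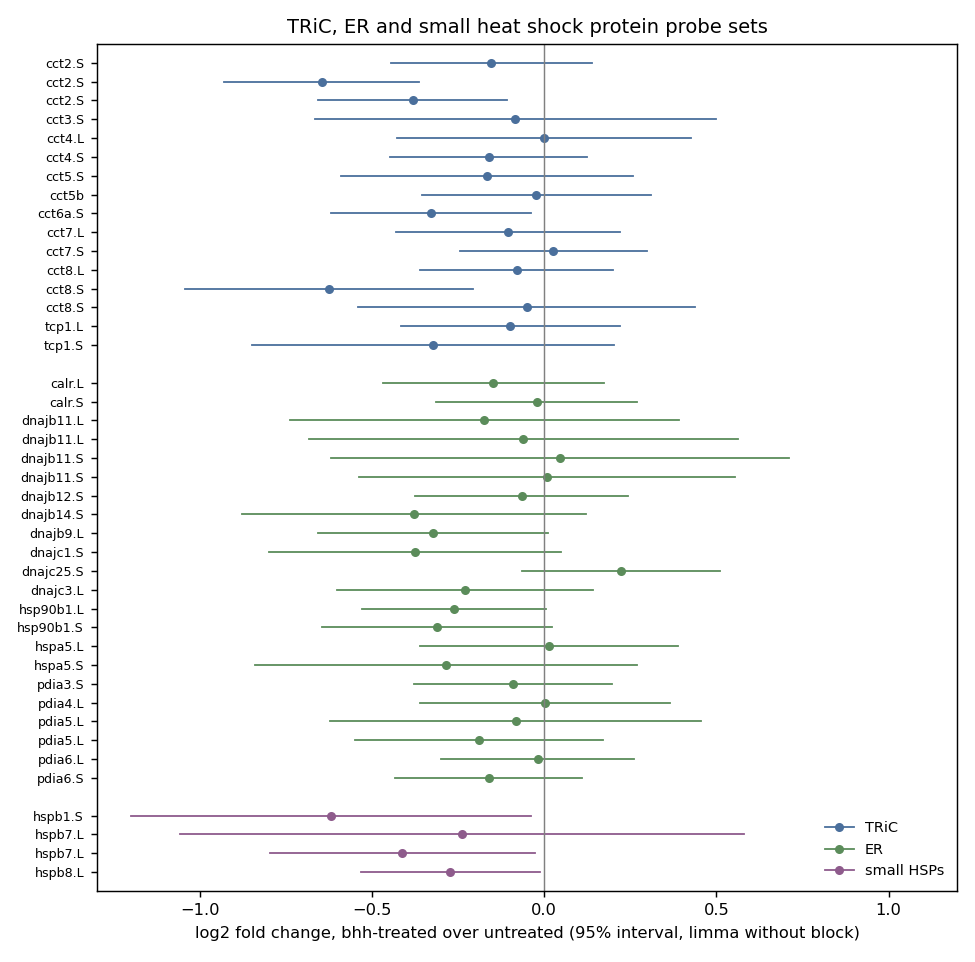
Log2 fold change (bhh-treated over untreated, horizontal axis) of each tested probe set of TRiC, the ER and the small heat shock proteins, with its 95% interval from the limma fit without a block. The intervals of probe sets named for 3 TRiC subunits (cct2.S, cct6a.S, cct8.S) and of 3 small heat shock protein probe sets lie below 0, and those of all ER probe sets include 0.

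The mitochondrial chaperones differed between arrays more than between groups. Of 12 tested probe sets, 10 were below 0, with a median of -0.16, which was 0.01 without treated array 1. None passed the unblocked fit. With the block, 2 were lower and 1 higher, against 2.66% and 3.65% of all tested probe sets. In 7 of the 12 probe sets, or 58.3%, array 1 was the lowest of its group in both groups, against 26.4% of all tested probe sets. These 7 read hspa9, hspd1.S, hspe1.L and dnaja3.L. In the other compartments the share ran from 0% for HSP90 to 42.9% for HSP70 and HSP110. For mitochondrial folding factors and proteases outside the membership it was 1 of 12, or 8.33%. Other compartments deviated on array 1 in the opposite direction. Array 1 was the highest of its group in both groups for 57.1% of HSP70 and HSP110, 37.5% of TRiC and 31.8% of ER probe sets. That share was 0% for HSP90 and the small heat shock proteins, 8.33% for the mitochondrial members and 19.8% for all tested. In the 12 mitochondrial members, the median difference of array 1 from the mean of arrays 2 and 3 was -0.40 in bhh-treated and -0.34 in untreated pools (log2 scale). For all tested probe sets it was -0.05 and -0.02. The ratio of 3' to 5' GAPDH signal was 4.42, 3.67 and 3.01 on treated arrays 1, 2 and 3, against 4.10, 3.59 and 3.31 on untreated ones. It was highest on the arrays numbered 1 and lowest on those numbered 3. Its part in these values was not tested.

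The gene hspa9 encodes mitochondrial HSP70, which draws proteins through the inner membrane. Its hspa9.L signals were 441, 982 and 962 in bhh-treated pools and 430, 756 and 929 in untreated pools. The hspa9.S signals were 373, 688 and 780 in bhh-treated pools and 460, 920 and 861 in untreated pools. Array 1 was lowest in all 4 sets of values, and the block lowered the standard error of hspa9.L from 0.33 to 0.12. The log2 fold changes were 0.16 for hspa9.L, above 0 in all 3 same-numbered pairs, and -0.29 for hspa9.S, below 0 in all 3, and neither passed (adjusted p = 0.495 and 0.167 with the block). Leaving out a single array gave -0.17 to 0.54 for hspa9.L and -0.61 to 0.0366 for hspa9.S, so the sign of both turned under some of these.

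The HSP60 gene hspd1 and the HSP10 gene hspe1, whose products form the mitochondrial folding chamber and its lid, each had a probe set that passed with the block. At the first of these, hspd1.S had 534, 846 and 993 in bhh-treated pools, against 692, 1379 and 1148 in untreated pools. The groups overlapped, but each pair ran the same way (-0.43 ± 0.27, limma adjusted p = 0.573, or 0.0424 with the block). Without treated array 1 the log2 fold change was -0.17, without untreated array 2 it was -0.22, and without untreated array 1 it was -0.72. Another hspd1.S probe set had -0.23 ± 0.40, and the dim hspd1.L had 0.00 ± 0.30. The hspe1.L probe set that passed had 1428, 1674 and 1626 in bhh-treated pools, against 1737, 2314 and 2352 in untreated pools. These were fully apart (-0.43 ± 0.15, adjusted p = 0.265, or 0.0196 with the block). The a_at probe set of hspe1.L had 916, 1736 and 1690 in bhh-treated pools and 1079, 1668 and 1696 in untreated pools, and lay at -0.06 ± 0.25. So for hspd1 and hspe1 alike, the call came from 1 probe set.

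The mitochondrial gene called higher with the block was dnajc19.L, whose product is part of the motor that imports proteins. It had 1911, 1558 and 1426 in bhh-treated pools, against 1245, 1135 and 1302 in untreated pools. The groups did not overlap, and the signal was 1.32-fold higher (0.40 ± 0.14, limma adjusted p = 0.271, or 0.0452 with the block). The 3 probe sets of dnaja3.L, the J-domain partner of mitochondrial HSP70, had 0.00 ± 0.17, -0.10 ± 0.16 and -0.41 ± 0.21. The last had 702, 413 and 449 in bhh-treated pools, against 839, 609 and 597 in untreated pools (adjusted p = 0.483, or 0.0564 with the block). It is an s_at probe set, whose probes by the maker's naming are shared between genes. The membrane-organising dnajc11.S was separated, with 402, 411 and 458 in bhh-treated pools, against 489, 488 and 516 in untreated pools (-0.24 ± 0.14, adjusted p = 0.537).

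**Figure D4:**
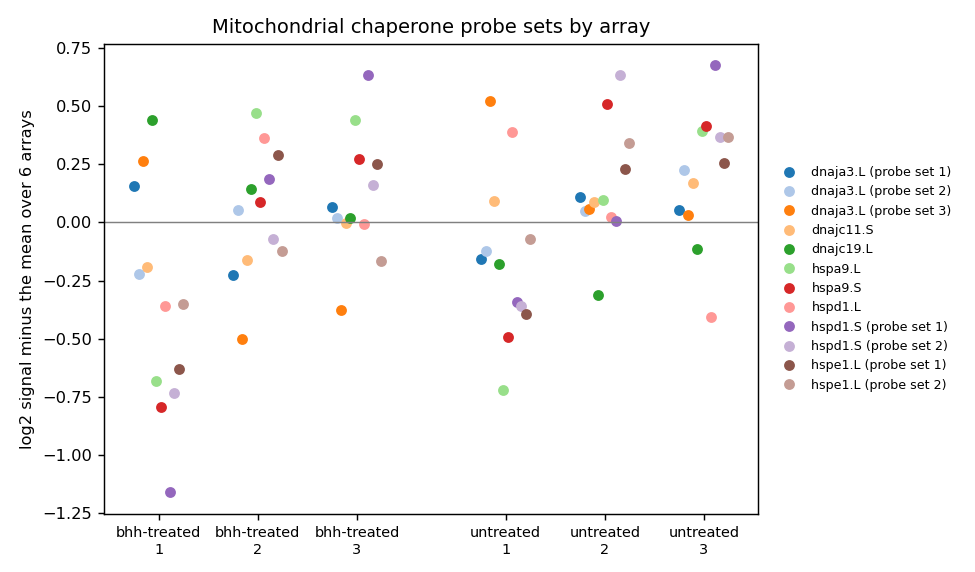
Log2 signal of each of the 12 mitochondrial probe sets on each array, as the difference from that probe set's mean over all 6 arrays (vertical axis), with the bhh-treated arrays on the left and the untreated arrays on the right. For 7 of the 12, array 1 is the lowest of its group in both groups.

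The stress response regulators held the largest differences of the tested members in both directions. The gene ddit4.S encodes REDD1, an inhibitor of the growth kinase mTORC1 that is induced by low oxygen, energy stress and glucocorticoids. Its signals were 1297, 1127 and 1282 in bhh-treated pools, against 899, 885 and 771 in untreated pools. All treated arrays were above all untreated ones, at 1235 ± 94.0 and 852 ± 70.1 (SD, n = 3). The signal was 1.45-fold higher (log2 fold change 0.54 ± 0.13, limma adjusted p = 0.0883), and passed with the block (adjusted p = 0.00831).

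The gene hmox1 encodes heme oxygenase 1, which degrades heme and is induced by oxidative stress. At the dim hmox1.S probe set the signals were 87.7, 100 and 60.8 in bhh-treated pools, against 130, 194 and 157 in untreated pools. These did not overlap, and the signal was 1.95-fold lower (-0.96 ± 0.25, limma adjusted p = 0.115), a call with the block (adjusted p = 0.0113). With an offset of 32 added to every signal, the log2 fold change was -0.74. At hmox1.L the signals were 1243, 1215 and 1180 in bhh-treated pools, against 1580, 1219 and 1318 in untreated pools, a difference of -0.17 ± 0.13 (adjusted p = 0.664, or 0.397 with the block). The constitutive form hmox2.S had 318, 236 and 297 in bhh-treated pools, against 262, 228 and 225 in untreated pools, and was above in all 3 same-numbered pairs (0.24 ± 0.17).

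The transcription factors of the unfolded protein and integrated stress responses did not pass. The probe set of xbp1.L, which does not tell its spliced form from its unspliced one here, had 1294, 1359 and 1458 in bhh-treated pools, against 1495, 1692 and 1705 in untreated pools. The groups were apart (-0.25 ± 0.12, limma adjusted p = 0.452, or 0.165 with the block). The single probe set of an atf4 gene with 1 symbol, atf4-iii, had 260, 256 and 225 in bhh-treated pools, against 182, 194 and 194 in untreated pools. These were apart in the other direction (0.38 ± 0.16, adjusted p = 0.379, or 0.17 with the block). Far brighter probe sets that atf4-iii shares with other atf4 genes were left out of the members, and there the groups overlapped. The related atf5.2.S had -0.31 ± 0.18 at its tested probe set, and its other 2 probe sets were too dim to test. No probe set with 1 symbol for atf3, atf6 or ddit3 was among the members.

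The gadd45 genes, growth arrest genes that answer DNA damage and are also patterned in normal embryos, gave no call. The gadd45g homeologs had 0.29 ± 0.28 (.L) and -0.17 ± 0.21 (.S), both with overlap. The gadd45a.S probe set had 106, 104 and 102 in bhh-treated pools, against 121, 128 and 115 in untreated pools, which were apart without a call (-0.22 ± 0.19, limma adjusted p = 0.699). It is the probe set that shares its array cluster name with that of cct6a.S.

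Homeologs, the gene pairs left by the genome duplication of Xenopus laevis, could be set side by side for 15 members. Both copies were below 0 in 7 pairs, both above in 1 and on opposite sides in 7. The median difference between copies was 0.16 on the log2 scale. The largest was that of hmox1, where the .S copy lay 0.79 below the .L copy. The ratio of the .S to the .L signal was separated between bhh-treated and untreated pools for 2 of the 15 pairs, hspa9 and cct8. The share over all homeolog pairs on the array was not computed, so this count has nothing to be set against. For a single pair, 3 arrays against 3 allow no exact permutation p below 0.1. The cct8 ratio takes the mean log2 signal of 2 cct8.S probe sets, whose log2 fold changes were -0.63 and -0.05. For hspa9 the log2 ratio was -0.24, -0.51 and -0.30 in bhh-treated pools, against 0.10, 0.28 and -0.11 in untreated pools. For cct8 it was -3.80, -3.70 and -4.15 in bhh-treated pools, against -3.56, -3.69 and -3.62 in untreated pools, where the nearest arrays of the groups nearly touched. Of 11 symbols with more than 1 tested probe set, the estimates of 1, cct8.S, were more than 0.5 apart on the log2 scale.

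Among genes outside the membership that work with these chaperones, none of the 5 lists held a call in the unblocked fit. With the block, 2.66% of all tested probe sets were lower and 3.65% higher. Of 25 tested probe sets of heat shock factors and HSP70 or HSP90 co-chaperones, 13 were below 0 (median -0.01), and 2 were lower with the block. These were stip1.L, the adaptor between HSP70 and HSP90, with 2040 ± 206 in bhh-treated and 2745 ± 238 in untreated pools (SD, n = 3; -0.43 ± 0.13, limma adjusted p = 0.193, or 0.0157 with the block), and ahsa1.L, an HSP90 activator (-0.71 ± 0.36, adjusted p = 0.463, or 0.0161 with the block). Of 32 ER stress and folding probe sets, 19 were below 0 (median -0.05). Of these, canx.S, which encodes the membrane-bound partner of calreticulin, was lower with the block (-0.37 ± 0.13, limma adjusted p = 0.256, or 0.0466 with the block). A canx.L probe set had -0.27 ± 0.12 (adjusted p = 0.111 with the block).

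In the list of mitochondrial folding factors and proteases, 11 of 12 were below 0 (median -0.21). The exchange factor of mitochondrial HSP70, grpel1.L, had 258 ± 16.2 in bhh-treated and 406 ± 116 in untreated pools (SD, n = 3). It was lower with the block (-0.61 ± 0.21, limma adjusted p = 0.257, or 0.0308 with the block). The protease subunit clpx.L had -0.49 ± 0.21 (limma adjusted p = 0.182 with the block). Of 22 oxidative stress probe sets, 15 were below 0 (median -0.09), and txn.L, a thioredoxin gene, was higher with the block. It had 521, 1665 and 2021 in bhh-treated pools, against 373, 335 and 692 in untreated pools, with overlap and a wide spread (1.45 ± 0.44, adjusted p = 0.189, or 5.6e-04 with the block). The glutathione synthesis gene gclm.L had -0.36 ± 0.14. Of 15 probe sets of the p53 and DNA damage list, 7 were below 0 (median 0.08) and none passed either fit, with ppm1d.S at -0.37 ± 0.19 and sesn1.L at -0.32 ± 0.18.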

How the data were processed

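The deposited data are intensity values: MAS5, the algorithm named in the submitters' processing notes, gave a linear signal to each probe set. The sources used here give neither its version nor its settings. It corrects for mismatch probes, which makes dim signals noisy, and scales arrays to a shared mean, which would hide a change common to most genes. Of 15491 probe sets other than controls, 9304 had 1 gene symbol in the platform table. Of the members, 91 of 92 matched the RefSeq table of Xenopus_laevis_v10.1, used for names only. Another 5 probe sets with several symbols were left out.

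Log2 signals were fitted with limma 3.58.1 in R 4.3.3 (eBayes with trend, two-sided), without the dimmest 25% of probe sets, which left 11618, and p-values were adjusted over these with the Benjamini-Hochberg method at 0.05. The scripts were tested on simulated data. A fold against a group under the background on all arrays is given as "at least", with those arrays set to the background. No pair of arrays shared more than 0.245% of values.

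Same-numbered arrays correlated in their deviations from group means at 0.407, 0.178 and 0.298 for numbers 1, 2 and 3, each over the limit of 0.1 for a paired design. Arrays 2 and 3 crossed gave 0.173 and 0.147, so the numbers 2 and 3 are hardly told apart. What the numbers mean is not in the labels. The design without the replicate block was the main one, and the blocked result stands beside calls that it changes.

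Members, compartments and lists were chosen with earlier results of these data known, and 3 members with other name forms were placed in their compartments after the names on the array were seen. Named are members called in either fit with their other probe sets, the 3 smallest p per compartment, a list of well-known members whatever their values, and in other lists the called genes or the 2 smallest p. Sequence features of the members were not analysed here. Alternatives are given in the closing section.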

Additional observations from a re-analysis of the deposited data

How the results depend on the processing

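Of the 1264 values of single member probe sets recomputed under 15 alternatives, 1240 kept their direction or lay within 1 SE of 0, and kept their side of the threshold. Of the rest, 16 gained a call, 7 lost it and 1 turned its sign. With 1 of 85 members called in the main design, few values had a call to lose. The block, the other filters and eBayes without trend leave each log2 fold change as it was, so direction could not change there. The count of members lower, 1 in the main design, was 6 with the replicate block, 5 with array weights, 4 with the arrays numbered 1 left out in both groups (an alternative chosen after seeing the data), 0 after scaling to a common median, 0 with eBayes without trend, and 0 to 1 when a single array was left out. The count of members higher, 0 in the main design, was 2 with the replicate block, 1 with array weights and 1 without the arrays numbered 1. Without those arrays the members called were cct2.S, hspe1.L, hmox1.S and hspb7.L (lower) and ddit4.S (higher). The median of all members stayed below 0 in all 15 alternatives, from -0.16 to -0.10. The median of the stress response regulators was 0.24 with the dimmest 50% left out, -0.0613 with array weights, -0.0423 without the arrays numbered 1, and -0.22 to -0.0922 with a single array left out. With a single array left out, the median was 0.0060 to 0.0794 for the HSP70 and HSP110 compartment and -0.22 to -0.10 for TRiC. It was then -0.0949 to 0.0507 for the J-domain proteins and -0.49 to -0.28 for the small heat shock proteins. The value of hspa5.S, -0.29 in the main design, was 0.0660 without treated array 1, and ranged from -0.48 to that value with a single array left out. Among the members, the replicate block changed no call other than those of hmox1.S, ddit4.S, dnajc19.L, hspd1.S, hspe1.L, cct8.S and a cct2.S probe set. Outside them it added the calls of stip1.L, ahsa1.L, canx.S, grpel1.L and txn.L and those among the tissue markers. The cause of these shifts was not tested. Only 3 arrays per group were made, which sets the precision: the median SE of the members was 0.17 without and 0.12 with the block.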

Other observations

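Probe sets that the platform table gives to several genes, and that were left out above, include 5 with chaperone or stress response names. The probe set shared by hspa5.L and hspa5.S had signals of 1749, 2174 and 2294 in bhh-treated pools, against 2127, 2956 and 2396 in untreated pools. It was lower in each same-numbered pair (difference of mean log2 signals -0.26). The probe set shared by tcp1.S and tcp1.L had 3290, 2480 and 2595 in bhh-treated pools, against 3698, 2927 and 3058 in untreated pools, also lower in each pair (-0.21). At the first probe set shared by atf4 genes, signals were 7664, 4885 and 4749 in bhh-treated and 6419, 4131 and 4899 in untreated pools (0.15). The second had 8680, 5441 and 5033 in bhh-treated and 8079, 4364 and 5194 in untreated pools (0.13). The groups of both overlapped. The probe set shared by the dnajb11 homeologs had a difference of 0.06. These values were not tested.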
